A study of Mus musculus with 3 samples.

Results

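CD61-high and CD61-low cells are the upper and lower ends of the CD61 antibody count among aged long-term haematopoietic stem cells (LT-HSCs) of mouse bone marrow. They were selected on that count alone. A cell entered with 10 or more antibody tags over the 12 antibodies of the panel, and was called CD61-high with 6 or more CD61 tags and CD61-low with 0 or 1. These gates took 779 CD61-high and 727 CD61-low cells, together 1506 of 3629 kept cells and of 3724 cells with antibody counts. The other 2123 kept cells, with 2 to 5 CD61 tags, were in neither gate.

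CD61 is integrin β3, encoded by Itgb3. It reaches the cell surface only as a heterodimer, with αIIb (CD41, encoded by Itga2b) as the fibrinogen receptor of platelets and megakaryocytes, or with αv (encoded by Itgav) as a receptor for vitronectin, osteopontin and other matrix proteins. Both pairs signal through talin and kindlin, which bind the β3 tail, and through Src-family kinases, Syk and FAK. Surface CD61 is also carried, at varying density, by HSCs themselves.

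The cells came from wild-type female C57BL6/J mice of 24 months. Marrow was enriched for c-Kit and LT-HSCs were sorted as lineage-negative cells with Sca-1, c-Kit and CD150 and without CD34 and CD48, so every cell of both groups had passed the same gate. One sample of cells, not assigned to single mice, was profiled by DOGMA-seq, in which oligonucleotide-tagged antibodies, mRNA and Tn5-accessible DNA are read from the same cells, with 1 library for each readout. In the study CD61 was read together with CD274, CD357 and CD27 to separate platelet-biased (PLT) from multi-lineage (MUL) HSCs, and the question here is what accompanied CD61 alone. Since both groups come from 1 sample, no difference below has a replicate check or a p-value. Every interval is an exact 95% interval. For tags and fragments it covers counting error only, for shares of cells it covers the sampling of cells, and none covers the spread between mice.

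The antibodies are told apart by a short DNA tag, and the tags of CD61 and of the antigens its comparison turns on are shown here because every surface value below counts them. The whole tag identifies the antibody, so all of its bases are in capitals.
CD61: TTCTTTACCCGCCTG
CD201: TATGATCTGCCCTTG
CD274: TCGATTCCACCAACT
CD357: GGCACTCTGTAACAT

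The kept cells held 38554133 ATAC fragments, 7681722 RNA UMIs and 114345 antibody tags, of which 13660 were CD61 tags. The gate was checked against promoter accessibility over all kept cells, as fragments within 1 kb of the annotated start per 1000000 nuclear fragments (CPM). The median over 20 HSC genes was 13.4 CPM and over 21938 protein-coding genes 9.91 CPM, while it was 1.04 for 16 erythroid, 3.13 for 16 myeloid, 1.36 for 12 B cell and 1.31 for 14 T and NK cell genes. For 12 endothelial and stromal genes it was 9.34. Over 30 megakaryocyte and platelet genes it was 8.38, and 13 of these lay above the median of all protein-coding genes. The members ranged widely in every list, from 0.493 to 48.8 CPM for HSC genes, 0.104 to 40.6 for erythroid, 0.156 to 32.5 for myeloid, 0.0519 to 15.3 for B cell and 0.0519 to 17.1 for T and NK cell genes. Above the median of all protein-coding genes lay 12 of the 20 HSC, 4 of the 16 erythroid, 3 of the 16 myeloid, 2 of the 12 B cell, 2 of the 14 T and NK cell and 6 of the 12 endothelial and stromal genes.

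The CD61 count formed 1 continuous distribution. Cells with 0 and 1 tags numbered 232 and 495, cells with 2 and 3 tags 600 and 607, cells with 4 and 5 tags 504 and 412, and cells with 6, 7 and 8 or more tags 289, 174 and 316. Just outside the gates lay the 600 cells with 2 tags and the 412 cells with 5 tags, and just inside them the 495 cells with 1 tag and the 289 cells with 6. The median was 7 CD61 tags in CD61-high cells and 1 in CD61-low cells, and CD61 was 19.4% of all antibody tags in the former and 2.72% in the latter. These values follow from the gates. With so few tags a cell, a count of 1 and a count of 2 lie within counting error of each other.

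**Figure D1:**
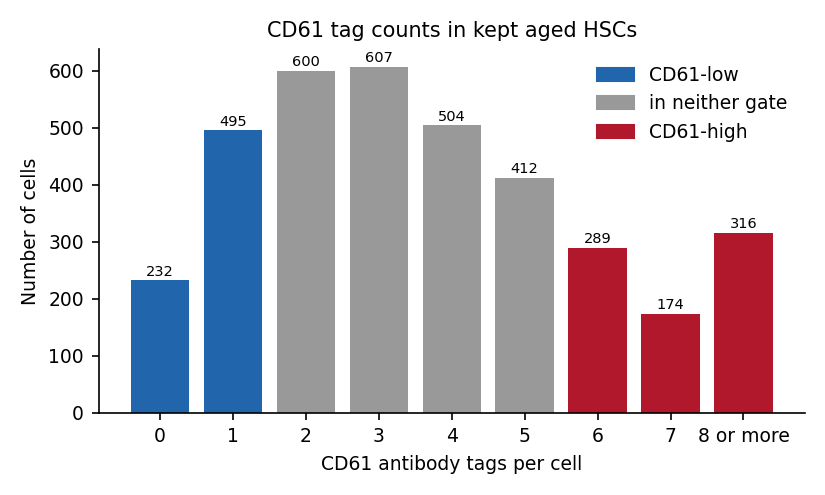
Number of kept aged HSCs (y axis) at each CD61 tag count (x axis), with CD61-low cells in blue, CD61-high cells in red and cells in neither gate in grey. The distribution has 1 mode, with 607 cells at 3 tags, and the gates cut its 2 ends.

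CD61-high cells carried more antibody tags and more RNA UMIs. The summed tags of the other 11 antibodies were 32.4 per CD61-high cell and 24.4 per CD61-low cell, a ratio of 1.33 (interval 1.30 to 1.35). Tags that matched no antibody were also more frequent, at 4.96 against 3.91 per cell, a ratio of 1.27 (interval 1.21 to 1.33). RNA UMIs had medians of 2077 and 1936 per cell, and 59.3% of CD61-high cells (interval 55.8 to 62.8) lay above the CD61-low median. Nuclear ATAC fragments were closer, with medians of 10486 and 10218 per cell and 54.2% of CD61-high cells (interval 50.6 to 57.7) above the CD61-low median. This share lay between 47.3% and 57.6% over 9 alternative settings, and its interval left out 50% in 2 of them.

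Measures of library quality overlapped between the groups, with small shifts in some. The median share of fragments in the called peak regions was 67.9% in CD61-high and 67.2% in CD61-low cells, and 59.3% of CD61-high cells (interval 55.8 to 62.8) lay above the CD61-low median. The intronic share of RNA UMIs had medians of 36.0% and 36.9%, and 42.9% of CD61-high cells (interval 39.4 to 46.4) lay above the CD61-low median. The median TSS enrichment was 5.98 and 5.94, and fragments within 1 kb of a start made up a median of 46.1% and 46.0%. The part of these shifts in the differences below was not tested.

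Sites with overlapping fragments were more frequent in CD61-high cells, by an amount that shrank at matched depth. A diploid genome gives at most 2 chromosomes to cut at an autosomal site, so sites covered by 3 or more fragments mark barcodes that may hold more than 1 cell or replicated DNA. An excess of such sites was found in 107 of 779 CD61-high cells (13.7%, interval 11.4 to 16.4) and in 40 of 727 CD61-low cells (5.5%, interval 3.96 to 7.42). The share was 5.60% at 0 CD61 tags, 5.45% at 1, 4.97% at 2 to 3, 7.10% at 4 to 5, 10.4% at 6 to 7 and 18.7% at 8 or more. The excess was called against 1 mean for all cells and was not scaled to the depth of a cell. Without the deepest 5% of cells the shares were 4.15% in CD61-high and 2.56% in CD61-low cells. When cells were drawn in equal numbers within 10 bins of ATAC fragments, the shares were 8.46% and 6.04%. In the ranking by the CD61 share of all tags, described below, they were 7.39% and 6.28%. Leaving these cells out lowered the ratio of summed other tags from 1.33 to 1.21 and that of mean ATAC fragments from 1.08 to 0.991. No doublet caller was run, the part of these cells in the differences was not otherwise tested, and several results below are also given without these cells.

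Among the other antibodies, CD201, the endothelial protein C receptor EPCR that marks HSCs and is encoded by Procr, differed most of those with more than 100 tags in each group. Its tags numbered 389 in CD61-high and 196 in CD61-low cells, or 0.499 and 0.270 per cell, a ratio of 1.85 (interval 1.56 to 2.21). At least 1 CD201 tag was found on 36.2% of CD61-high and 22.3% of CD61-low cells. For comparison, CD163, a macrophage receptor, had a tag on 2.44% and 1.79% of these cells. The background of the CD201 antibody itself was not measured. Set against the tags of the remaining 10 other antibodies in the same cells, CD201 was still 1.40 times as frequent (interval 1.18 to 1.67). CD274 gave 19551 of the 25219 other tags of CD61-high cells and 13190 of the 17711 of CD61-low cells. For antibodies other than CD274, the scaled ratios are therefore mostly against CD274, and draws matched on other tags are mostly matched on it. A scale without CD274 was not computed.

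CD201 was also counted over the whole range of CD61. Mean CD201 tags per cell were 0.228 at 0 CD61 tags, 0.289 at 1, 0.434 at 2 to 3, 0.428 at 4 to 5, 0.486 at 6 to 7 and 0.519 at 8 or more. The step lay between 1 and 2 tags of CD61, and the intervals of the 4 upper bins overlapped. With gates at 4 or more and 3 or less, the ratio of mean CD201 tags was 1.24 and the ratio against the remaining other tags 1.053 (interval 0.951 to 1.17). When CD61-high and CD61-low cells were drawn in equal numbers within 10 bins of the summed other tags, the ratio of mean CD201 tags was 1.62 (interval 1.33 to 1.98), and without the cells with excess overlaps it was 1.68 (interval 1.40 to 2.03). It turned to 0.940 (interval 0.803 to 1.10) when 907 cells each were ranked by the CD61 share of all their tags, a ranking that has the other tags in its denominator and set them at a ratio of 0.630. The ratio against the remaining other tags was above 1 in all 9 alternative settings, this ranking among them. It lay between 1.053 and 1.61, and its interval left out 1 in 8 of them.

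CD274 (PD-L1), which supplied most tags of the panel, was on every cell of both groups. It had 25.1 tags per CD61-high cell and 18.1 per CD61-low cell, a ratio of 1.38 (interval 1.35 to 1.41), and 1.18 (interval 1.16 to 1.21) against the remaining other tags. Its mean climbed over the whole range of CD61, from 17.2 at 0 tags through 18.6, 20.4, 21.7 and 23.7 to 27.2 at 8 or more. Per 100 of the remaining other tags it was 277.2, 298.5, 337.3, 332.9, 348.6 and 340.4, so the scaled level rose up to 2 to 3 CD61 tags and had no order above. The scaled difference depended on how CD61 was ranked. It was 0.866 for the 907 cells at each end of the CD61 share and 0.995 for the 907 cells at each end of the residual of log CD61 on log other tags and log ATAC fragments. Both rankings use the summed other tags, of which CD274 is the largest component. When cells were drawn in equal numbers at matched summed other tags, scaled CD274 was 1.12 (interval 1.09 to 1.14).

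CD357 (GITR, a TNF receptor family member encoded by Tnfrsf18) had 3.60 tags per CD61-high cell and 3.20 per CD61-low cell, a ratio of 1.12 (interval 1.06 to 1.19). Against the remaining other tags, which were mostly CD274, it was lower, at 0.827 (interval 0.782 to 0.874). When cells were drawn in equal numbers at matched summed other tags it was below 1 on both scales, at 0.883 and 0.851. Over 9 alternative settings the ratio of mean CD357 tags lay between 0.642 and 1.26, and the scaled ratio between 0.818 and 1.02. P2X7R, an ATP-gated channel, had 0.596 and 0.602 tags per cell, and 0.739 (interval 0.647 to 0.844) against the remaining other tags. The ratio of its mean tags was 0.868 (interval 0.752 to 1.003) without the cells with excess overlaps and 0.793 (interval 0.678 to 0.926) at matched summed other tags. In the ranking by CD61 share it was 0.589 (interval 0.518 to 0.669), and the scaled ratio 0.933 (interval 0.821 to 1.06). CD27, a TNF receptor family member of lymphoid and progenitor cells, had 1.04 and 0.759 tags per cell, a ratio of 1.37 (interval 1.22 to 1.53), and 1.03 (interval 0.922 to 1.15) against the remaining other tags. Drawn at matched summed other tags, CD27 was higher on both scales, at 1.16 (interval 1.02 to 1.32) and 1.15 (interval 1.01 to 1.30). Without the cells with excess overlaps its ratio of mean tags was 1.23 (interval 1.09 to 1.38), and in the ranking by CD61 share it turned to 0.859 (interval 0.775 to 0.951). The scaled CD27 ratio was 1.38 (interval 1.24 to 1.52) in that ranking and 1.18 (interval 1.07 to 1.31) in that by the residual.

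The remaining antibodies were sparse. MERTK, a receptor for apoptotic cells, had 0.870 and 0.759 tags per cell, a ratio of 1.15 (interval 1.02 to 1.28), and 0.859 (interval 0.766 to 0.963) when scaled. Its direction depended on the cells compared. The ratio of mean tags was 1.04 (interval 0.921 to 1.17) without the cells with excess overlaps, 0.938 (interval 0.829 to 1.06) with 20 or more tags per cell and 0.871 (interval 0.762 to 0.995) at matched summed other tags, and the scaled ratio was 1.20 (interval 1.07 to 1.34) in the ranking by CD61 share and 1.04 (interval 0.933 to 1.15) in that by the residual. The minimum of 20 tags counts CD61 itself, so it asks more other tags of CD61-low cells. It kept 753 of 779 CD61-high but 445 of 727 CD61-low cells. The deposited list of antibodies describes the one named CD106 (VCAM-1) as anti-CD68. The study's reagent list holds separate anti-CD106 and anti-CD68 antibodies, and their tags differ, so the name CD106 is used here. CD106 had 0.383 and 0.341 tags per cell and CD68 0.139 and 0.135, and neither interval of the ratio left out 1. Over 9 alternative settings the CD68 ratio lay between 0.667 and 2.24 and its interval left out 1 in 3, and the CD106 ratio lay between 0.798 and 1.15 and its interval left out 1 in 2. CD183, the chemokine receptor CXCR3, had 0.0860 and 0.105 tags per cell, a ratio of 0.823 (interval 0.583 to 1.16), and 0.618 (interval 0.438 to 0.870) when scaled, on 67 and 76 tags in all. The CD183 ratio of mean tags was 0.649 (interval 0.441 to 0.948) without the cells with excess overlaps and 1.39 (interval 0.777 to 2.57) with gates at 8 or more and 0, where the scaled ratio was 0.925 (interval 0.517 to 1.71). CD163 had 26 and 21 tags in all, a ratio of 1.16 (interval 0.625 to 2.16), and CD206 26 and 12, a ratio of 2.02 (interval 0.985 to 4.40). Over 9 alternative settings the interval left out 1 in 1 for CD163 and in 2 for CD206, whose ratio was above 1 in all 9. CD68, CD163 and CD206, antigens of macrophages, were each found on at most 8.73% of the cells of either group, whereas MERTK was found on 44.7% and 38.0%.

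**Figure D2:**
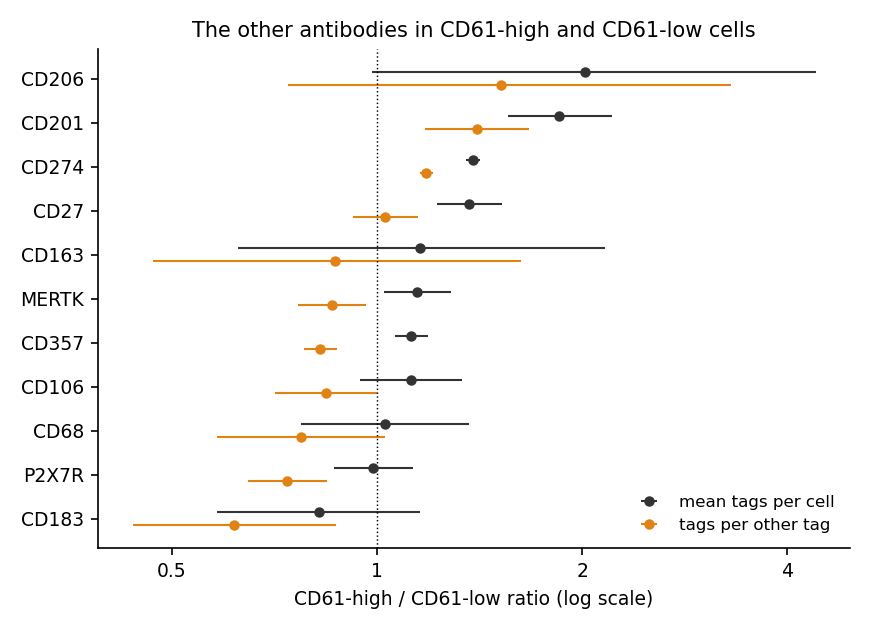
Ratio of each other antibody between CD61-high and CD61-low cells (x axis, log scale), as mean tags per cell (dark) and as tags per tag of the remaining other antibodies (orange), with exact 95% intervals as bars. CD201 and CD274 had intervals above 1 on both scales, the CD27 interval held 1 once scaled, and CD357, MERTK, CD106, CD68 and CD163 went from above to below 1.

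The other 3 conditions of the study's phenotype, which joins them to CD61, were each counted in both groups. The cut used here was the median of raw tag counts and is not the study's gate. It was not scaled for the higher tag depth of CD61-high cells, and no version at matched depth was computed. CD274 above the median of all kept cells was found in 59.1% of CD61-high and 36.6% of CD61-low cells. CD357 at or below the median held for 57.1% and 63.3%, and CD27 at or below the median for 73.8% and 82.4%. All 3 conditions together were met by 161 of 779 CD61-high cells (20.7%, interval 17.9 to 23.7) and by 119 of 727 CD61-low cells (16.4%, interval 13.8 to 19.3), and these intervals overlapped.

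No difference was detectable over the whole gene that encodes CD61 or at its promoter. Itgb3 lies at chr11:104608000-104670476 (mm10, plus strand), and 831 fragments of CD61-high and 692 of CD61-low cells overlapped the gene with 2 kb upstream, or 95.3 and 91.7 CPM. The log2 ratio was 0.06 (interval -0.09 to 0.20). Its promoter, 1 kb either side of the start, gave a log2 ratio of -0.09 (interval -0.39 to 0.20). By CD61 count the gene had 104.4, 85.7, 99.9, 98.9, 91.4 and 100.5 CPM from 0 to 8 or more tags, with no order. The most accessible 500 bp stretches of the locus were at the start, with 90 and 72 fragments just after it and 72 and 69 just before it, and 3500 and 6000 bp into the gene, with 63 against 56 and 48 against 48. At none of these 4 did the interval of the log2 ratio leave out 0. Of the other stretches of the locus only those 16500 and 38500 bp into the gene had an interval that did, on 10 against 1 fragments (interval 0.30 to 8.55) and 20 against 7 (interval 0.0066 to 2.79).

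The same held for its partners. Itga2b, the αIIb gene, had 1150 and 960 fragments and a log2 ratio of 0.05 (interval -0.07 to 0.18), and Itgav, the αv gene, had 496 and 417 and a log2 ratio of 0.04 (interval -0.15 to 0.23). Summed over the 3 subunits the log2 ratio was 0.051 (interval -0.033 to 0.136). A difference of 0.32 on the log2 scale, the fold used below for calls, was outside the counting interval of the whole Itgb3 gene in either direction but inside that of its promoter on the lower side, whereas CD61 tags per cell were 7.79 and 0.681 by selection.

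The genes of the other antigens were compared in the same way, since surface and chromatin readouts come from the same cells. Procr, the CD201 gene, had 119 fragments in CD61-high and 72 in CD61-low cells, 13.6 and 9.54 CPM, a log2 ratio of 0.51 (interval 0.08 to 0.96), in the same direction as its product CD201. With 191 fragments in all it lay under the minimum of 200 used for the genome-wide counts. By CD61 count it had 7.02, 10.7, 12.1, 11.3, 13.6 and 13.7 CPM. The log2 ratio was above 0 in all 11 alternative settings, between 0.15 and 0.94, and its interval left out 0 in 6 of them. Without the cells with excess overlaps it was 0.46 (interval -0.01 to 0.95).

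**Figure D3:**
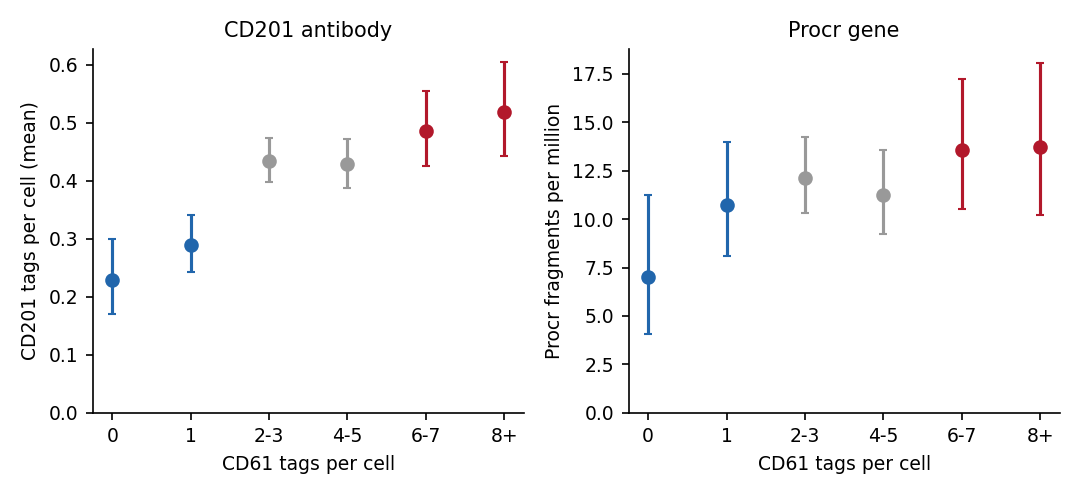
Mean CD201 tags per cell (left) and CPM over Procr with 2 kb upstream (right) against the CD61 tag count, for CD61-low (blue), ungated (grey) and CD61-high (red) cells, with exact 95% Poisson intervals. Both are lowest at 0 CD61 tags, with 0.228 CD201 tags and 7.02 fragments, and the Procr intervals of neighbouring bins overlap.

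The Procr promoter is shown because gene and surface product moved in 1 direction. The sequence is from RefSeq (GRCm38.p6, the assembly of mm10), chr2:155750967-155751266, plus strand, from 250 bases before to 50 after the start. Capitals mark the matches to motifs searched on both strands. These are here CEBP (TTGCNNAA), NF-E2 (GCTGAGTCA), ETS (CGGAAG), the E-box (CAGCTG) and CTCF (AGGGGGC). The matches of CEBP, NF-E2 and CTCF read on the reverse strand. The AP-1 letters searched were TGANTCA, with N for any base, and every NF-E2 match contains them.
Procr promoter: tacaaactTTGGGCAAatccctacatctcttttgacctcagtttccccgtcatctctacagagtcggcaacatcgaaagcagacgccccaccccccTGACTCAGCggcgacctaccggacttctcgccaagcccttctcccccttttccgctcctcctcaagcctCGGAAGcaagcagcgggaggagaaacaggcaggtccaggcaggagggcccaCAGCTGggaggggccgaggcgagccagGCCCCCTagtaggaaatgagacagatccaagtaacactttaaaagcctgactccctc
Of 32851 promoters of this length, 0.454% held the NF-E2 letters, 7.81% the AP-1 letters, 16.9% the ETS letters, 16.3% the E-box, 10.8% the CEBP and 10.6% the CTCF letters. A match describes the sequence and does not show that a factor is bound.

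Cd274 went the other way from its product in these gates. Its gene had 277 and 303 fragments, 31.8 and 40.1 CPM, a log2 ratio of -0.34 (interval -0.58 to -0.10), while CD274 tags were 1.38 times as frequent on CD61-high cells. The ratio stayed below 0 in all 11 alternative settings, between -0.44 and -0.13, and its interval left out 0 in 9 of them. The ratio of mean CD274 tags kept its direction in 7 of 9 alternative settings. In the rankings by CD61 share and by the residual it was 0.609 and 0.985. Both rankings use the summed other tags, which are mostly CD274, so the direction of CD274 cannot be read from them. The gene was lower there too, at -0.39 (interval -0.62 to -0.17) and -0.37 (interval -0.59 to -0.14). At the Cd274 promoter there were 121 and 145 fragments, a log2 ratio of -0.47 (interval -0.83 to -0.11). It is shown beside that of Procr (RefSeq, GRCm38.p6, chr19:29367188-29367487, plus strand), with matches to the GATA motif (its letters being AGATAA), IRF (GAAANNGAA) and ETS in capitals, the last 2 on the reverse strand.
Cd274 promoter: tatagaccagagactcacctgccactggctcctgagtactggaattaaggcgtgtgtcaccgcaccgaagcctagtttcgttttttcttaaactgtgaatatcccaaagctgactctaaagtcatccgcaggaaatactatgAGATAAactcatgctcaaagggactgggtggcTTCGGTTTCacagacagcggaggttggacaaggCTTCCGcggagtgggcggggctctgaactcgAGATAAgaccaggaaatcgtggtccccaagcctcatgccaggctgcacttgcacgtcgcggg
GATA letters were held by 11.2% and IRF letters by 8.56% of all promoters of this length.

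Mertk, with 626 and 484 fragments, had a log2 ratio of 0.16 (interval -0.01 to 0.34), and P2rx7, with 692 and 618, had -0.05 (interval -0.20 to 0.11). For Cd27, Tnfrsf18, Vcam1, Cd68, Cd163, Cxcr3 and Mrc1 the log2 ratios were between -0.25 and 0.24 and every interval held 0. Procr and Cd274 were thus the 2 of 12 antigen genes whose interval left out 0, beside 8.93% of all genes with enough fragments, and with 12 genes nothing is read from their number.

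Over the genome the groups were close. The log2 ratios of 17352 genes with 200 or more fragments had a median of -0.002, and 90% of them lay between -0.23 and 0.24. Of these genes 331 (1.91%) were higher in CD61-high cells by 0.32 or more on the log2 scale and 294 (1.69%) were as much lower. The interval of the log2 ratio lay above 0 at 4.72% of the genes and below 0 at 4.21%. Among 11720 promoters 327 (2.79%) were past this fold on the higher side and 229 (1.95%) on the lower, and among 1317 distal windows of 500 bp, over 2 kb from every annotated start, 93 (7.06%) and 45 (3.42%). These shares grow as fragments per feature shrink. With 500 or more fragments, 55 genes were past the fold on the higher and 45 on the lower side.

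**Figure D4:**
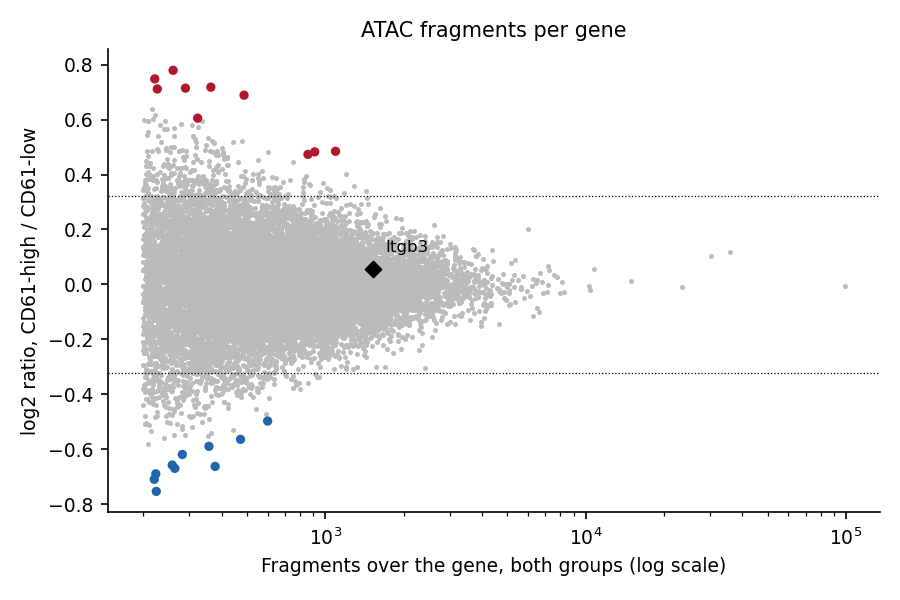
Log2 ratio of ATAC fragments between CD61-high and CD61-low cells (y axis) against fragments over the gene in both groups (x axis, log scale), with dotted lines at 0.32 on either side of 0 and the 10 named genes at each end in red and blue. The spread narrows with depth, and Itgb3 (diamond) sits at 0.06.

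The 10 genes with the highest lower bounds were chosen for this difference and so are given as a description. Dpp10, an auxiliary subunit of Kv4 potassium channels, had 317 and 170 fragments (log2 ratio 0.69, interval 0.42 to 0.97). Kcnb2, a voltage-gated potassium channel, had 676 and 418 (log2 ratio 0.48), and Ctnna2, the neuronal α-catenin, 528 and 329 (log2 ratio 0.47). The fragments of Dpp10, Kcnb2 and Ctnna2 were summed over long genes, such as Ctnna2 at chr6:76881637-77979699. Their promoters were not among those named below. Tox3, an HMG-box protein, had the highest log2 ratio, 0.78, on 173 and 87 fragments. Smim1, which carries the Vel blood group antigen of red cells, had 148 and 78 fragments (log2 ratio 0.71) and Foxc2, a forkhead factor of mesenchyme and vessels, 206 and 117 (log2 ratio 0.61). Kdf1, Slc5a10, Gm5148 and Gm28638 completed the list with log2 ratios from 0.48 to 0.75.

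The 10 genes with the lowest upper bounds were chosen in the same way. Pmaip1, which encodes the BH3-only protein Noxa, had 159 and 218 fragments (log2 ratio -0.66, interval -0.97 to -0.36). Ltk, a receptor tyrosine kinase, had the lowest log2 ratio, -0.75, on 91 and 133 fragments. Cox6c, a subunit of cytochrome c oxidase, had 93 and 130 (log2 ratio -0.69), and Bnip1, a SNARE of the endoplasmic reticulum, 91 and 129 (log2 ratio -0.71). Tgs1, which hypermethylates the cap of small nuclear RNAs, and its neighbour Tmem68 had log2 ratios of -0.56 and -0.59, and their starts lie so close that the same fragments count for both. Hmgxb4, Tmprss4, Hormad2 and 2010315B03Rik lay between -0.67 and -0.50.

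Cells that no gate had used were also compared at these named features. Cells with 4 to 5 CD61 tags were set against cells with 2 to 3. Of the 10 genes higher in CD61-high cells 5 were also higher at 4 to 5 tags, and of the 10 lower genes 6 were also lower. Foxc2 had the highest of these log2 ratios among the first 10, 0.27, and Dpp10 had 0.22, whereas Tox3 had -0.27. For the promoters 3 of 5 and 2 of 5 kept the sign, and for the distal windows 3 of 5 and 0 of 5. The lower promoters that did were those of Tmem68 and Tgs1, which count the same fragments. The higher ones included Gm11479 and Gdpd1, whose starts lie next to each other, so neither pair gives separate observations. The share of all features that kept their sign is not given here, so nothing is read from these counts.

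Of the promoters chosen in the same way, Gm11479, a lincRNA, had 138 and 64 fragments (log2 ratio 0.89, interval 0.46 to 1.35), and Gdpd1, a phosphodiesterase gene whose start lies next to it, had 160 and 87 (log2 ratio 0.67). Ddx18, an RNA helicase of ribosome assembly, had 181 and 100 (log2 ratio 0.64). Gm5148 and Gm48162 had log2 ratios of 0.69 and 0.64. The promoters with the lowest upper bounds were those of Pmaip1 (115 and 167 fragments, log2 ratio -0.74), 2010315B03Rik, Tmem68 and Tgs1, and of Taf1d, a subunit of the RNA polymerase I factor SL1 (232 and 281 fragments, log2 ratio -0.48). The Pmaip1 promoter had 20.2, 23.0, 16.8, 18.8, 15 and 10.8 CPM from 0 to 8 or more CD61 tags. The bins at both ends hold the cells by which it was chosen, so their order is no further result. In the ungated bins it was higher at the higher CD61 count, 18.8 against 16.8 CPM.

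Among distal windows the one with the highest lower bound lay in an intron of Nfatc2, a calcineurin-regulated factor, at chr2:168525001-168525500, with 167 and 89 fragments (log2 ratio 0.70, interval 0.32 to 1.09). A window in an intron of Rgs9, a regulator of G protein signalling, at chr11:109270501-109271000, had 145 and 82 (log2 ratio 0.61) and was the only one of the 5 whose log2 ratio in the ungated cells exceeded 0.1, at 0.38. The other 3 lay in exons of Gga1 and Ppp1r9b and between genes near Stoml1. On the lower side the first was in an intron of Exoc6b, a subunit of the exocyst, at chr6:84883001-84883500, with 100 and 133 fragments (log2 ratio -0.62, interval -1.01 to -0.23). A window in an intron of Ccnd3, the cyclin D3 gene, had 148 and 176 (log2 ratio -0.46), and the remaining 3 lay in an intron of St6gal1 and between genes near Hfe2 and Ppp1r21. All 5 had log2 ratios above 0 in the ungated cells.

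The central 250 bases of 3 of the intronic windows are shown (mm10, plus strand), the first on either side by its bound and the Rgs9 window, whose log2 ratio was also positive in the ungated cells. Capitals mark motifs found within the printed stretch, RUNX (TGTGGT) in Rgs9 and GATA (2 matches on the reverse strand) in Exoc6b, and none was found in the Nfatc2 stretch.
Nfatc2 intron, chr2:168525126-168525375: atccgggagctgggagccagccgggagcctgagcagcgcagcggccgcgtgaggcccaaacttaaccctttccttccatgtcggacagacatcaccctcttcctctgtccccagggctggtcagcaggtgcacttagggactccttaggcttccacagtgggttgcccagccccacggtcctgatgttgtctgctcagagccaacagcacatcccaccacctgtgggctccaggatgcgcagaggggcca
Rgs9 intron, chr11:109270626-109270875: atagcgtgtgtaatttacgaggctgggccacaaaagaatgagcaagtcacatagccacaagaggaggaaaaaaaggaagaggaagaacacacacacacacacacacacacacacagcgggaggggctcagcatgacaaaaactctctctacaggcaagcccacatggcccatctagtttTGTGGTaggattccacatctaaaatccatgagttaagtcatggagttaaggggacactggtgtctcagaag
Exoc6b intron, chr6:84883126-84883375: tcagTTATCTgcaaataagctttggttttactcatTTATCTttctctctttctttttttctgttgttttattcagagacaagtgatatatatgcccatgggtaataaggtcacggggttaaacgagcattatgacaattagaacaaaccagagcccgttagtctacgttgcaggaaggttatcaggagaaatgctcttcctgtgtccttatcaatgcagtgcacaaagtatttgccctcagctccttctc
Over its whole 500 bp the Nfatc2 window held the AP-1 letters, the Rgs9 window those of GATA, RUNX and AP-1, and the Exoc6b window those of GATA. Of 56460 distal windows of 500 bp, 22.9% held the GATA letters, 38.6% the RUNX letters and 17.6% the AP-1 letters.

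Over all distal windows a small share of fragments shifted between motif classes. Windows with the GATA letters took 22.1% of the distal fragments of CD61-high cells and 22.4% of those of CD61-low cells, a ratio of 0.986 (interval 0.981 to 0.990). Windows with the NF-E2 letters, the site of the megakaryocytic and erythroid factor NF-E2, took 2.86% and 2.78%, a ratio of 1.03 (interval 1.02 to 1.04), and those with the AP-1 letters, which every NF-E2 match contains, 18.4% and 18.2%, a ratio of 1.01 (interval 1.005 to 1.016). STAT (TTCCNGGAA) had a ratio of 1.02 (interval 1.002 to 1.035), and its interval left out 1 in 6 of 9 alternative settings. The mean GC content of the distal fragments' windows was 49.5% in both groups. For RUNX, ETS, E-box, CEBP, IRF (GAAANNGAA), KLF (GGGCGTGG), MEIS (TGACAG), CTCF and NRF1 (GCGCATGCG) the ratios were between 0.972 and 1.01 and every interval held 1.

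Both shares ran in order through much of the CD61 range. The GATA share was 22.5% at 0 tags, 22.4% at 1, 22.2% at 2 to 3 and at 4 to 5, and 22.1% at 6 to 7 and at 8 or more. The NF-E2 share was 2.70%, 2.82%, 2.85%, 2.86%, 2.86% and 2.86%, so its step lay at the lowest counts. The GATA ratio remained below 1 without the cells with excess overlaps, at 0.987 (interval 0.982 to 0.992), and the NF-E2 ratio above 1, at 1.02 (interval 1.01 to 1.04). Ranked by the CD61 share of all tags, the 907 cells at each end gave 0.997 (interval 0.993 to 1.001) and 1.004 (interval 0.991 to 1.016), and neither difference was then detectable. The AP-1 ratio was 1.0002 (interval 0.994 to 1.006) at matched summed other tags and 1.0005 (interval 0.994 to 1.007) with 20 or more tags per cell, and it turned to 0.991 (interval 0.986 to 0.996) in the ranking by CD61 share.

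The gene lists were read against all genes, whose median log2 ratio was -0.002, with 1.91% past the fold on the higher and 1.69% on the lower side. The first lists come from bulk RNA-seq of HSC clones of known output in the study, that is from other samples, and were taken up with earlier results of these cells known. Of 67 clone PLT genes 56 had 200 or more fragments, 3 were past the fold on the higher side and 0 on the lower, and the median log2 ratio was 0.034. Their summed fragments were 38282 in CD61-high and 32065 in CD61-low cells, 4390 and 4248 CPM, a log2 ratio of 0.047 (interval 0.026 to 0.069). Clec14a, an endothelial lectin-like receptor, had a log2 ratio of 0.49 (interval 0.08 to 0.90) and Evc, a protein of the ciliary base, 0.45 (interval 0.17 to 0.73), while Erp27 and Dffb had -0.26 and -0.24. Of 62 clone MUL genes 53 had enough fragments, 1 was past the fold on the higher side and 2 on the lower, and the median was -0.026. Their sum was lower, at 2857 against 2941 CPM, a log2 ratio of -0.042 (interval -0.068 to -0.016). Serpinb1a, a protease inhibitor of neutrophils, had -0.55 (interval -0.91 to -0.19) and Il18r1, the interleukin-18 receptor, -0.36, while Gcsam and Gpr65 had 0.43 and 0.26.

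Both sums were small differences. The clone PLT sum moved with the gates and the ranking of CD61, and the clone MUL sum when cells were thinned. Of 11 alternative settings, 8 kept the clone PLT sum and 10 the clone MUL sum within the counting interval of the value above. The clone PLT sum was 4159, 4290, 4323, 4340, 4400 and 4377 CPM from 0 to 8 or more CD61 tags, so that only the last step went down. The clone MUL sum was 2935, 2945, 2896, 2870, 2871 and 2838. Ranked by the CD61 share of all tags, the clone PLT log2 ratio was 0.0070 (interval -0.013 to 0.027), and with cells thinned to 6000 fragments the clone MUL log2 ratio was -0.014 (interval -0.050 to 0.023). Without the cells with excess overlaps the log2 ratios were 0.036 (interval 0.012 to 0.059) and -0.046 (interval -0.075 to -0.017). For the promoters alone they were 0.040 (interval 0.0038 to 0.077) and 0.0074 (interval -0.035 to 0.050).

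The short panels that the study used to tell the 2 kinds of HSC apart were less clear. Vwf, the von Willebrand factor gene that marks platelet-biased HSCs, had 1853 and 1639 fragments and a log2 ratio of -0.03 (interval -0.13 to 0.07). Gpr4, Inhba, Plek2, Pdgfc and Neo1, the other platelet-bias genes, had log2 ratios from -0.06 to 0.19, every interval held 0, and the 6 genes together had 0.022 (interval -0.047 to 0.091). Of the multi-lineage panel Flt3, the receptor tyrosine kinase of lymphoid-primed progenitors, had 524 and 539 fragments (log2 ratio -0.25, interval -0.43 to -0.07). Ctla2a, a cathepsin inhibitor, had 77 and 101 (log2 ratio -0.60, interval -1.05 to -0.16), under the fragment minimum. Sox4, an HMG-box factor, had -0.20 (interval -0.41 to 0.02), Crip2, Sec16b, Cd27 and Clec4d lay between -0.04 and 0.17, and the 7 genes together had -0.12 (interval -0.21 to -0.031). Over 11 alternative settings this sum lay between -0.13 and -0.031, and its interval left out 0 in 6 of them.

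For megakaryocyte and platelet genes as a group no difference was detectable. Of 30 genes 25 had enough fragments, 0 were past the fold on the higher and 2 on the lower side, and the summed log2 ratio was -0.0090 (interval -0.041 to 0.023). Pf4, platelet factor 4, had 151 and 167 fragments (log2 ratio -0.35, interval -0.68 to -0.03) and Gp1bb, a chain of the von Willebrand factor receptor, -0.36 (interval -0.74 to 0.01). Slamf1, which encodes the sort marker CD150, was highest at 339 and 235 fragments (log2 ratio 0.32, interval 0.08 to 0.57), and Gp1ba had 0.23 (interval -0.07 to 0.54). The CD61 integrin ligands (log2 ratio of the sum -0.039, interval -0.099 to 0.022), the integrin activation and signalling genes (-0.0099, interval -0.040 to 0.020) and the other integrin subunits (-0.018, interval -0.059 to 0.023) were level too. Within them Ptk2, which encodes FAK, had 0.21 (interval 0.03 to 0.39) and Syk -0.20 (interval -0.38 to -0.0088), Vtn, the vitronectin gene, had 0.20 and Thbs1, the thrombospondin gene, -0.20. Of the integrins Itgb2, the β2 chain of leukocytes, had -0.36 (interval -0.64 to -0.09) and Itgb6, the β6 chain of epithelia, -0.29 (interval -0.57 to -0.0079). Itga11, the α chain of a collagen receptor, had 0.23 (interval 0.02 to 0.44) and Itga5, the α chain of the fibronectin receptor, 0.22 (interval 0.06 to 0.39).

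HSC and HSC ageing genes had sums slightly above 0. The interval left out 0 for the HSC promoters but not the whole HSC genes, and for the whole ageing genes but not their promoters. Over 20 HSC genes the summed log2 ratio was 0.026 (interval -0.0043 to 0.057), and over their promoters alone 0.12 (interval 0.051 to 0.20). Of 30 genes of HSC ageing 29 had enough fragments, 1 was past the fold on the higher and 0 on the lower side, the median was 0.056 and the sum 0.040 (interval 0.0084 to 0.072). Over their promoters alone the sum was 0.015 (interval -0.040 to 0.070). The ageing sum was above 0 in all 11 alternative settings, and its interval held 0 with gates at 8 or more and 0 and with cells thinned to 6000 fragments. Clca3a1 led it at 0.35 (interval -0.0090 to 0.72), and Ehd3 and Selp, the P-selectin gene, were lowest at -0.16 and -0.14. AP-1 and early response genes had a sum of 0.041 (interval 0.011 to 0.071), with Fosl1 at 0.34 and Egr2 at 0.23, and this interval left out 0 in 7 of 11 alternative settings. Interferon response genes had 0.051 (interval -0.012 to 0.11), with Irf9 at 0.21.

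Cell cycle genes had sums slightly below 0, and the choice of cells moved them. All 20 genes of G2 and M phase had enough fragments, 1 was past the fold on each side, and the median log2 ratio was -0.14. Their sum was 766 against 813 CPM, a log2 ratio of -0.087 (interval -0.14 to -0.036). Cdc20, an activator of the anaphase-promoting complex, had 272 and 302 fragments (log2 ratio -0.36, interval -0.60 to -0.12) and Mki67, the gene of the proliferation antigen Ki-67, 427 and 450 (log2 ratio -0.28, interval -0.48 to -0.09). Cenpf, a kinetochore protein, went the other way at 508 and 334 (log2 ratio 0.40, interval 0.19 to 0.60). By CD61 count the sum was 821, 810, 767, 775, 772 and 758 CPM. S phase genes had a sum of -0.048 (interval -0.091 to -0.0046), with Mcm3 at -0.28 and Ccne2 at -0.24 against Mcm6 at 0.11. The S phase interval left out 0 in 3 of 11 alternative settings, and the sum was 0.0042 with gates at 8 or more and 0. The G2 and M phase sum was -0.019 in the ranking by CD61 share and -0.026 with gates at 4 or more and 3 or less, and its interval left out 0 in 7 of 11 alternative settings. Without the cells with excess overlaps the G2 and M phase sum was -0.077 (interval -0.13 to -0.022).

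For genes of other lineages no difference was detectable in the sums over whole genes. The summed log2 ratios were 0.028 for erythroid, -0.00085 for myeloid, 0.034 for macrophage, 0.024 for B cell, 0.0068 for T and NK cell, -0.0025 for mast cell and basophil and 0.011 for endothelial and stromal genes, and all 7 intervals held 0. Over the promoters of the 16 macrophage genes alone the sum was 0.20 (interval 0.049 to 0.36). Single members at the ends of these lists had intervals that left out 0, as did 8.93% of all genes with enough fragments. They were picked by their ratio, and alternative settings were not computed for them. Prtn3 had 0.21 (interval 0.01 to 0.41), Gata3 0.16 (interval 0.03 to 0.29) and Pdgfra -0.18 (interval -0.36 to -0.0078). Hmox1, heme oxygenase, had 213 and 131 fragments (log2 ratio 0.49, interval 0.17 to 0.82), Irf8, a factor of monocytes and dendritic cells, 372 and 269 (log2 ratio 0.26, interval 0.03 to 0.49), and Epor, the erythropoietin receptor, 161 and 176 (log2 ratio -0.34, interval -0.65 to -0.02). The TGF-β pathway had a sum of -0.011 (interval -0.046 to 0.023), although Tgfbr2, the type II receptor, had 879 and 873 fragments (log2 ratio -0.20, interval -0.34 to -0.06). The GATA, RUNX and partner factors had -0.025 (interval -0.050 to -0.00013), with Lyl1 at -0.15 and Gata3 at 0.16. This interval left out 0 in 2 of 11 alternative settings, and the sum was 0.0071 when 8 or more CD61 tags were set against 0.

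**Figure D5:**
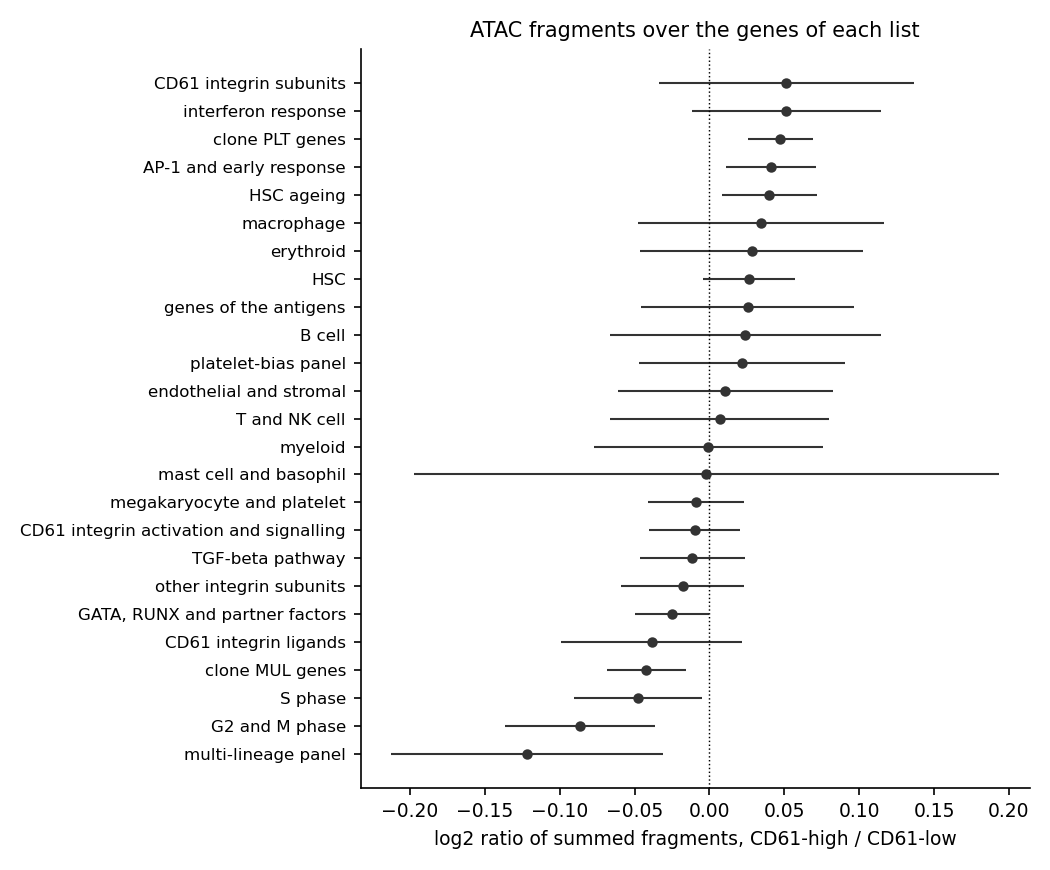
Log2 ratio of summed ATAC fragments between CD61-high and CD61-low cells (x axis) for each of the 25 gene lists (y axis), with exact 95% intervals as bars. Clone PLT, ageing and early response genes lie above 0 and clone MUL, S phase, G2 and M phase, multi-lineage panel and GATA and RUNX factor genes below it with these gates, all within 0.13 of 0, and the last had an interval that left out 0 in 2 of 11 alternative settings.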

How the data were processed

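Per the labels and the study's methods, the authors aligned the ATAC and RNA reads to mm10 with Cell Ranger ARC 2.0.2 and tallied antibody tags with CITE-seq-Count. The deposited values used here are raw counts: tags per antibody and cell, and ATAC fragments with their barcode. The metrics per barcode are counts too. No deposited value had been normalized. The rule for cells was 10 or more tags over the 12 antibodies, and CD61 counts of 6 or more or of 1 or less.

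Fragments were counted over 32582 genes of GENCODE M21 with 2 kb upstream, within 1 kb of starts, and by fragment midpoint in 500 bp windows over 2 kb from every transcript start. Sums over cells were divided by the nuclear fragments of those cells, 8719924 for CD61-high and 7548139 for CD61-low, with 0.5 added to each count for the log2 ratio. Intervals are exact (Poisson for means, Clopper-Pearson for shares, conditional binomial for ratios, scipy 1.17.1). Features with under 200 fragments over both groups entered no genome-wide count. Cells with an excess of sites covered by 3 or more fragments were found against a Poisson count (adjusted p under 0.01). Its mean was the same for all cells and was not scaled to their depth. No test compared the groups, since there is 1 sample of cells. The study's own quality filter on cells was not applied, and no doublet caller was run.

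The named genes are those of the 12 antigens, the study's panels and the CD61 integrin subunits, the 2 highest and 2 lowest of every other list, and the 10 genes, 5 promoters and 5 windows at each end of the interval bounds. Of 512 list entries 511 matched, 5 through an older symbol. The members and lists were chosen with earlier results of these data known. The code of the comparison was checked on simulated independent Poisson counts, the model behind the intervals. This check cannot show that the intervals hold for the fragments of these cells. The alternatives changed the tag minimum, the gates, the ranking of CD61, the cells, the depth, the scale, the fragment minimum and the fold.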

Additional observations from a re-analysis of the deposited data

How the results depend on the processing

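Values below follow 1 order: the ratio of mean tags of the other antibodies together, of CD274 and of CD357, then the ratios against the remaining other tags, then motifs and counts of features (higher, then lower, in CD61-high cells). With 20 or more tags per cell the first were 1.08, 1.105 and 0.956, MERTK 0.938, scaled CD274 1.104, the AP-1 motif ratio 1.0005, 53 distal windows were higher and 2 motif intervals left out 1. With gates at 8 or more and 0 they were 1.504, 1.582 and 1.261, CD201 2.27, scaled CD274 1.228, GATA 0.978, AP-1 1.02 and NF-E2 1.061, the clone PLT sum was 0.074, the S phase sum 0.0042 and the GATA, RUNX and partner factor sum 0.0071, and 3 distal windows lay on each side. With gates at 4 or more and 3 or less the other antibodies were 1.176, CD274 1.192, CD201 1.238, scaled CD274 1.059, CD357 0.938 and CD201 1.053, GATA 0.994, AP-1 1.005 and NF-E2 1.013, the clone PLT sum 0.023 and the G2 and M phase sum -0.026, 55.8% of CD61-high cells lay above the CD61-low median of RNA UMIs, and the counts were 171 and 128 genes, 203 and 148 promoters and 409 and 256 distal windows.

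Ranking by the CD61 share of all tags, which has the other tags in its denominator, gave 0.63, 0.609 and 0.642, CD201 0.94, CD27 0.859 and MERTK 0.752, scaled CD274 0.866, CD357 1.02 and MERTK 1.2, GATA 0.997, AP-1 0.991 and NF-E2 1.004, a clone PLT sum of 0.0070 and a G2 and M phase sum of -0.019, 215 higher promoters and 103 lower distal windows. Ranking by the residual of CD61 gave 0.986, 0.985 and 0.93, CD201 1.444, scaled CD274 0.995, CD357 0.936 and MERTK 1.038, GATA 0.991, AP-1 1.002 and NF-E2 1.015, and 47.3% of CD61-high cells above the CD61-low median of ATAC fragments. At matched other tags the values were 1.017, 1.044 and 0.883, MERTK 0.871, scaled CD274 1.116, GATA 0.991 and AP-1 1.0002, with 37 and 27 distal windows. At matched ATAC fragments the other antibodies were 1.289 and CD274 1.339, 50.5% of CD61-high cells lay above that median and 27 distal windows were lower.

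Without the cells with excess overlaps the other antibodies were 1.206 and CD274 1.245, scaled CD274 1.143 and CD357 0.881, with 55.7% above the median of RNA UMIs and 60 and 29 distal windows. Without the deepest 5% of cells they were 1.233, 1.276 and, scaled, 1.153, with 49.9% above the median of ATAC fragments. Thinned to 6000 fragments per cell, 8 and 7 distal windows were past the fold and the clone MUL sum was -0.014. A minimum of 50 fragments gave 1063 and 992 genes, 1234 and 890 promoters and 3903 and 2801 distal windows, a minimum of 500 gave 55 and 45, 43 and 17, and 1 and 0, and a fold of 1.5 gave 15 and 8, 11 and 5, and 7 and 1. The causes of these shifts were not tested. Of the main values, counts and leading lists under the alternatives, 186 stayed within the counting interval of the value reported (counts within 1.5 times), 88 moved further and 15 turned to the other side. Of the values of single genes, promoters, windows, antibodies and the remaining lists, these numbers were 1110, 108 and 8.

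No paired analysis was possible because all cells come from 1 sample. With 1 library per assay, neither the spread between mice nor that between libraries is known, so counting intervals are the least error these values carry. CD61 counts are small, so gates misplace cells near their edges.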
